A study of Mus musculus with 10 samples.

Results

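The genes described here encode the machinery that imports proteins into mitochondria, fuses and divides the organelle, and degrades its damaged proteins. They were chosen by symbol, as the count table's entries for the Timm and Tomm translocase subunits together with a fixed set of fusion, fission, protease, prohibitin, cristae and mitophagy genes. The rule used no measured value and found 48 of the 20295 gene models. Of these, 46 had enough reads to be tested. The remaining members were Timm8a2, a relative of Timm8a1 with 3 reads over all 10 libraries, and Tomm20l, a relative of Tomm20 with 2 reads.

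The study compared the transcriptome of brown fat in the cold and at room temperature. Libraries were made from poly-A RNA of the interscapular brown adipose depot, a thermogenic fat that lies over the upper back, with 1 library per mouse. All 10 mice were male C57BL/6JBomTac, 8 weeks old, single-housed on a 12 h light and dark cycle with free access to chow, and none is labelled as genetically altered. Of these, 5 stayed at 22 °C (control) and 5 were moved to 4 °C for 3 days (cold). Because 22 °C is the room temperature of the mouse house, every difference below is relative to mice at that temperature.

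Most mitochondrial proteins are made in the cytosol and enter through the translocase of the outer membrane (TOM). Presequence proteins then pass the TIM23 translocase of the inner membrane, while carrier proteins are escorted by small TIM chaperones to the TIM22 translocase. Mitofusins and Opa1 fuse the membranes, Dnm1l divides them, AAA proteases degrade misfolded membrane proteins, and the Pink1 and parkin pair marks damaged mitochondria for removal. In brown adipocytes this machinery serves an unusually dense population of mitochondria, whose inner membrane carries the uncoupling protein Ucp1.

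Each control library held between 4446163 and 5776905 counts, and each cold library between 5676963 and 6923932. On the first 2 principal components control replicate 2 and cold replicate 5 stood apart from the other libraries of their groups. For some members, though not for all, values without these libraries are therefore also given. Ucp1, which defines the tissue, was at 8077 to 9956 CPM, counts scaled to a common library size, in control libraries. In cold libraries it was at 17182 to 19500 CPM. The summed level of 11 brown adipocyte markers, Ucp1 among them, ran from 28238 to 33066 and from 37199 to 42334 CPM. Of the 11, 2 were called higher and 2 lower, and 7 had a negative log2 fold change (median -0.11). Ppargc1a and Dio2, both among the 11, ranged widely in control libraries, at 81.5 to 993 and 166 to 1500 CPM. In cold libraries they were at 194 to 343 and 369 to 660 CPM, and neither was called. Markers of other cells were also present. Summed levels in control and cold libraries were 112 to 237 and 82.5 to 378 CPM for 8 macrophage genes (2 higher, 1 lower), 668 to 861 and 824 to 980 CPM for 7 endothelial genes (2 higher), and 388 to 573 and 276 to 845 CPM for 7 fibroblast genes (1 higher). The 12 skeletal muscle genes summed to 5.97 to 89.3 and 7.67 to 369.7 CPM. The 5 epithelial genes summed to 0 to 0.679 and 0 to 1.03 CPM, and 2 of them, Krt5 and Krt14, were at 0 in every library. In whole tissue fewer cells of a type and less RNA per cell cannot be told apart, and the part of these markers in the results below was not tested.

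As a group, these mitochondrial genes differed little between 22 °C and 4 °C. In edgeR's quasi-likelihood test 3 of the 46 tested members rose and 3 fell (adjusted p under 0.05), which is 13.0%, against 19.3% of all 11229 genes tested (10.2% higher and 9.14% lower). The risers were the small TIM chaperone genes Timm8b and Timm8a1 and the prohibitin gene Phb. The genes that fell were the protease gene Yme1l1, the TIM23 subunit gene Timm21 and the kinase gene Pink1. Cold and control libraries did not overlap for 5 members, 3 higher and 2 lower, or 10.9%, against 14% of all genes (7.39% higher and 6.57% lower). The median log2 fold change, cold relative to control, was 0.02 over the members and -0.02 over all genes tested.

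The members were also tightly measured. The log2 fold change lay within 0.25 of 0 for 36 of 46 members (78.3%), against 55.6% of all genes tested. The whole 95% interval lay within 0.5 of 0 for 39 members (84.8%), against 42.8% of all genes. Neither share is particular to these genes, since 72 tested genes of oxidative phosphorylation had 75% and 83.3%, and the members are more abundant than most genes (median 79.4 CPM per kb of counted bases in control libraries, against 8.64). The median coefficient of variation among control libraries was 8.45% over the members and 16.7% over all genes tested, and among cold libraries 7.38% and 12.6%. Their summed level was 7928 ± 254 CPM at 22 °C and 8002 ± 269 CPM at 4 °C (SD, n = 5 each), and the ranges overlapped, at 7664 to 8344 and 7773 to 8328 CPM. These genes took 0.793% of the counts at 22 °C and 0.800% at 4 °C. With 5 libraries a group and a typical biological coefficient of variation of 16.6%, 13 members (28.3%) had an unadjusted p under 0.05, against 34.1% of all genes tested, and 6 of the 13 passed the adjustment.

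**Figure D1:**
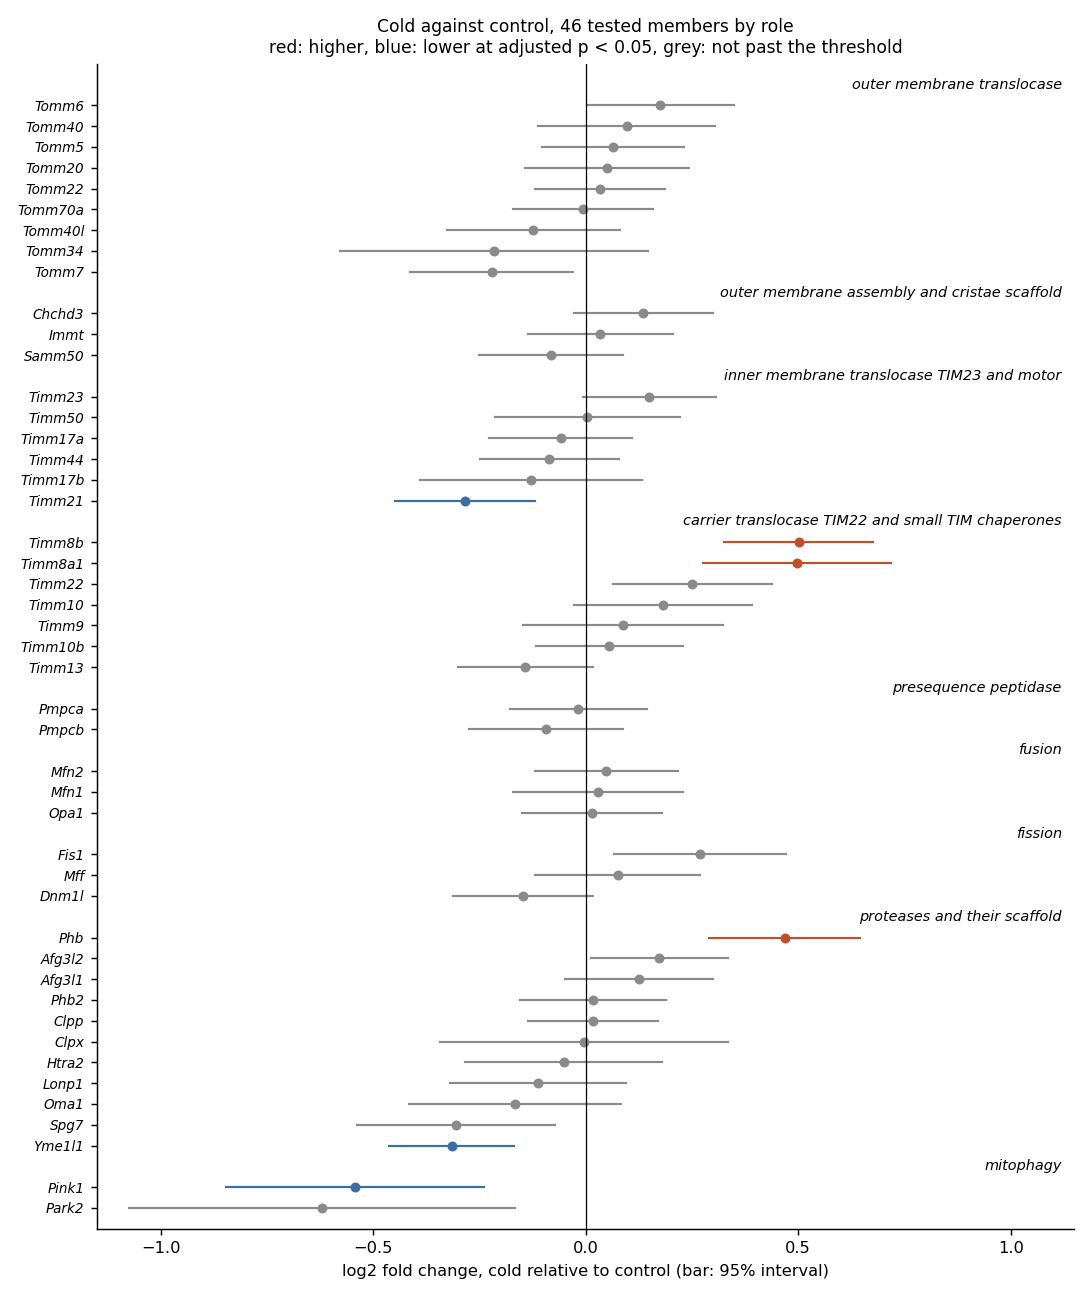
Log2 fold change of the 46 tested members, cold relative to control, on the horizontal axis with 95% intervals, grouped by role. The 3 members in red (Timm8b, Timm8a1, Phb) were higher and the 3 in blue (Timm21, Yme1l1, Pink1) lower at an adjusted p under 0.05, and the range runs from -0.62 for Park2 to 0.50 for Timm8b.

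Timm8b and Timm8a1 encode small chaperones of the intermembrane space that work with Timm13 to carry hydrophobic precursors, among them Timm23, between the membranes. Timm8b (chromosome 9, 50412006 to 50413425 in mm9, plus strand) was at 84.8, 89.8, 94.2, 91.1 and 84.4 CPM in control replicates 1 to 5 and at 127, 121, 147, 116 and 118 CPM in cold replicates 1 to 5. Every cold library lay above every control library, and cold replicate 3 was the highest. The log2 fold change was 0.50 (SE 0.08, adjusted p = 0.00117, 1.41-fold). Timm8a1 (chromosome X, 131071797 to 131076168, minus strand) was at 22.6, 25.3, 20.4, 29.0 and 25.4 CPM in control and at 34.9, 34.0, 33.9, 37.4 and 33.7 CPM in cold libraries. The groups did not overlap, and the cold libraries were closer together than the control ones. Its log2 fold change was also 0.50 (SE 0.10, adjusted p = 0.00497, 1.41-fold). Reads were counted with no stated strand, and Timm8b shares 81 bases with AU019823 on the other strand, which was at 22.2 and 21.7 CPM (adjusted p = 0.858).

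Their partner Timm13 did not pass the test and lay on the other side of 0. It was at 179 ± 11.3 CPM at 22 °C and 162 ± 10.02 CPM at 4 °C (SD, n = 5 each), or -0.14 as a log2 fold change (SE 0.07, adjusted p = 0.197). The other small TIM genes did not pass either. Timm9 and Timm10, which form the chaperone that hands carrier proteins over, were at 0.09 and 0.18, and Timm10b, which tethers that chaperone to the translocase, was at 0.06. Timm22, the channel of the carrier translocase, was at 53.7 ± 3.79 CPM at 22 °C and 63.9 ± 5.48 CPM at 4 °C (SD, n = 5 each) and missed the threshold (log2 fold change 0.25, SE 0.09, adjusted p = 0.0595). Without cold replicate 4 Timm22 reached 0.30 with an adjusted p of 0.0373. It was called in only 1 of the 10 fits without 1 library, with adjusted p up to 0.142. Of the 7 tested genes of this branch 6 had a positive log2 fold change (85.7%, against 47.7% of all genes tested), with a median of 0.18. Of these, 2 were past the threshold (28.6% of the branch, against 10.2% of all genes tested called higher). Summed over the branch the level was 492 to 542 CPM at 22 °C and 542 to 619 CPM at 4 °C. The highest control library (541.9) lay just under the lowest cold library (542.4). The sum includes Timm8b and Timm8a1, so it repeats the rise of these called genes.

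Phb encodes prohibitin, which alternates with its relative Phb2 in ring-shaped scaffolds of the inner membrane that hold the m-AAA proteases. Phb (chromosome 11, 95528271 to 95542087, plus strand) was at 269, 235, 230.2, 244 and 278 CPM in control and at 364, 347, 374, 346 and 306 CPM in cold libraries. The groups did not overlap, with cold replicate 5 the lowest cold library and control replicate 5 the highest control library. The log2 fold change was 0.47 (SE 0.08, adjusted p = 0.00193, 1.38-fold). Phb2 was at 358, 293, 313, 327 and 311 CPM in control and at 319, 292, 355, 338 and 318 CPM in cold libraries. These groups overlapped through most of their range, and the log2 fold change of Phb2 was 0.02 (SE 0.08, adjusted p = 0.899), with a 95% interval from -0.15 to 0.19.

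Yme1l1 encodes the i-AAA protease, which faces the intermembrane space and cleaves Opa1 as well as short-lived import subunits. Yme1l1 (chromosome 2, 23012025 to 23054780, plus strand) was at 125, 127, 123, 117 and 122 CPM in control and at 96.9, 104, 100.8, 90.5 and 100.8 CPM in cold libraries. All cold libraries lay below all control libraries. It fell by 0.32 on the log2 scale (SE 0.07, adjusted p = 0.00661), to 0.804 of the control level. Timm21, a TIM23 subunit that contacts the TOM complex and the respiratory chain, was at 64.5, 65.5, 64.1, 71.2 and 66.7 CPM in control and at 55.8, 58.3, 54.6, 48.5 and 55.7 CPM in cold libraries. Its groups did not overlap either, and cold replicate 4 was the lowest. Timm21 (chromosome 18, 85116686 to 85120916, minus strand) fell by 0.28 on the log2 scale (SE 0.08, adjusted p = 0.0201). Without cold replicate 4 the value was -0.24 with an adjusted p of 0.0556, no longer called, while Timm21 was called in the other 9 fits without 1 library. The span of Timm21 lies within that of Fbxo15 on the other strand, which had 1 read in all.

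Pink1 encodes the kinase that accumulates on mitochondria when import fails, and Park2 encodes parkin, the ubiquitin ligase it recruits. Pink1 (chromosome 4, 137869325 to 137882211, minus strand) was at 319.9, 396, 385, 364 and 309 CPM in control and at 193, 219, 227, 233 and 345 CPM in cold libraries. In 4 of 5 cold libraries it lay below every control library, and cold replicate 5 lay within the control range. It fell by 0.54 on the log2 scale (SE 0.14, adjusted p = 0.0167), to 0.686 of the control level, and without cold replicate 5 the value was -0.71 (adjusted p = 0.000411). Park2 was scarce, at 34 to 49 reads in control and 22 to 41 reads in cold libraries. It was at 10.6, 6.86, 7.81, 6.74 and 10.1 CPM in control and at 3.78, 5.59, 4.56, 6.50 and 6.92 CPM in cold libraries, and the groups overlapped through cold replicate 5. Its log2 fold change of -0.62 (SE 0.21) was the furthest from 0 among the members but missed the threshold (adjusted p = 0.0554). Without cold replicate 5 Park2 was at -0.72 (adjusted p = 0.0339). The value was -0.69 (adjusted p = 0.0390) when control replicate 2 was omitted and -0.78 (adjusted p = 0.0197) when both were. In the other fits without 1 library Park2 was not called, with adjusted p up to 0.126.

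**Figure D2:**
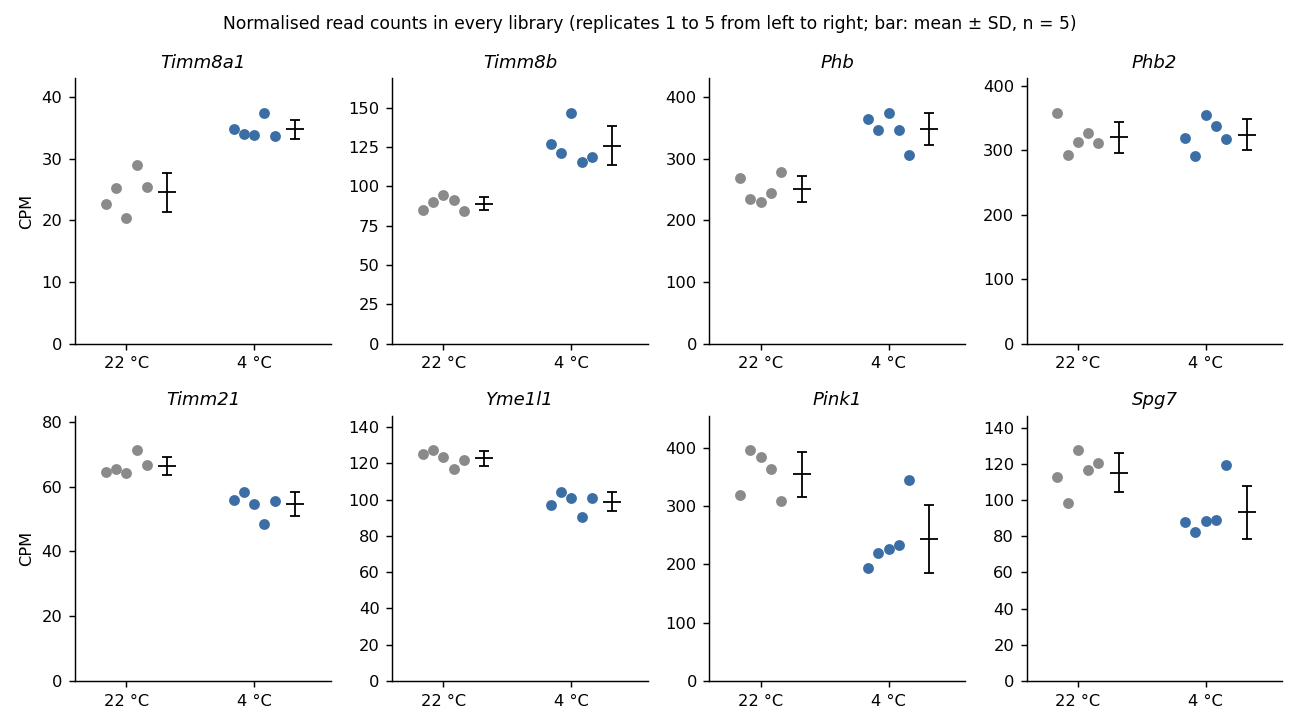
Normalised read counts (CPM, vertical axis from 0) of 8 members in each library, replicates 1 to 5 from left to right in grey for 22 °C and blue for 4 °C, with mean and SD (n = 5). Timm8a1, Timm8b and Phb lie higher and Timm21 and Yme1l1 lower in all 5 cold libraries, Phb2 overlaps throughout, and cold replicate 5 stands above the other cold libraries for Pink1 (345 CPM) and Spg7 (119 CPM).

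The windows just upstream of the start sites of 5 called members, and of Phb2 beside its partner Phb, are printed so that the genes past the threshold can be set side by side by sequence. The called member Timm21 is among the members without a window. Each is the 250 bases before the RefSeq start in GRCm38.p6, 5′ to 3′ on the gene's strand: Timm8b at chr9:50603651-50603900 (plus), Timm8a1 at chrX:134541671-134541920 (minus), Phb at chr11:95666707-95666956 (plus), Phb2 at chr6:124712039-124712288 (plus), Yme1l1 at chr2:23156255-23156504 (plus) and Pink1 at chr4:138326297-138326546 (minus). Capitals mark every match, on either strand, to 7 motifs of factors known at promoters of nuclear genes for mitochondrial proteins: NRF1 (GCATGCGC), ETS or GABP (CCGGAAGT), ERR (AAGGTCA), CRE (TGACGTCA), YY1 (AAGATGGC), GC box (GGGCGG) and CCAAT box (CCAAT).
Timm8b: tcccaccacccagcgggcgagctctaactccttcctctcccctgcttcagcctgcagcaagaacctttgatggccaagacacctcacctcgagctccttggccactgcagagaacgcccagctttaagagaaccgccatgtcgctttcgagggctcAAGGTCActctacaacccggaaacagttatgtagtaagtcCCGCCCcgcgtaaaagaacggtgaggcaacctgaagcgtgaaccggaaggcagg
Timm8a1: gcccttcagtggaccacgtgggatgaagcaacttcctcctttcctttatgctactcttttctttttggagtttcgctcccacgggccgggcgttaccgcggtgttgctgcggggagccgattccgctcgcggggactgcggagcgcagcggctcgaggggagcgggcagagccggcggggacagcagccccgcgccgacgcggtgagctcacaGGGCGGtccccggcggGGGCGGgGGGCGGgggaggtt
Phb: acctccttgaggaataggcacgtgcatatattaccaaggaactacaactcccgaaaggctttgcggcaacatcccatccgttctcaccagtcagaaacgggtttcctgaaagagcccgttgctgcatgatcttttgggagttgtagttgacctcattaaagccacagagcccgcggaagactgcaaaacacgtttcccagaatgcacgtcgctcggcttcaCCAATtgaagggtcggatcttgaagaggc
Phb2: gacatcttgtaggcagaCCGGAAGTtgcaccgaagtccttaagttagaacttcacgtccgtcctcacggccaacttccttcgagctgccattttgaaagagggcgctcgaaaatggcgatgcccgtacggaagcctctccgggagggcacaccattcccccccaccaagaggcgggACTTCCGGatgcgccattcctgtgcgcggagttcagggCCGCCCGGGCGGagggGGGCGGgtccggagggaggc
Yme1l1: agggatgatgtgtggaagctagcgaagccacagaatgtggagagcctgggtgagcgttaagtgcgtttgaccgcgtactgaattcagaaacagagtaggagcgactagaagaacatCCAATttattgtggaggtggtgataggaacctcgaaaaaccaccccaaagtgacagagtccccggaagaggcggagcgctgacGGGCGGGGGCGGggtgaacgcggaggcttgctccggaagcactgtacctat
Pink1: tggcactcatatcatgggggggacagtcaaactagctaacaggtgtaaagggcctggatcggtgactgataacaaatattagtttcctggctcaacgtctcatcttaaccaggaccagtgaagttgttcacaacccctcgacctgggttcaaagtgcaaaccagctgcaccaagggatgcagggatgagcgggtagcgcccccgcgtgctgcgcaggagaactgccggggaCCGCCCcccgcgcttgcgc

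A window was found for 42 of the 48 members. The ETS motif was in the windows of 7 members (16.7%): Fis1, Mfn1, Phb2, Pmpcb, Timm23, Timm8a2 and Tomm70a. It was in 7.02% of the windows of 9011 tested genes and 3.23% of all 27025 windows. None of the 5 called members with a window is among these 7. Of the 7, Phb2 has it once on each strand, at 233 and 74 bases before its start, and also 3 GC boxes. Phb has a CCAAT box at 29 bases before its start and no other match. The ERR motif, which takes estrogen-related receptors, was in the window of 1 member, Timm8b (2.38%), at 94 bases before the start, against 3.50% of tested genes and 4.70% of all windows. Timm8a1 has 3 GC boxes within 37 bases of its start, Yme1l1 has 2 that touch each other and a CCAAT box, and Pink1 has 1. The NRF1 motif was in 7.14% of member windows (Clpx, Opa1 and Timm13), against 5.20% of tested genes and 2.56% of all windows. GC boxes were in 59.5% of member windows and 65.4% of those of tested genes, and CCAAT boxes in 42.9% and 40.5%. The CRE and YY1 motifs were in 0 of 42 member windows and in 3.03% and 2.42% of those of tested genes. These are matches of letters within these windows only.

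The outer membrane translocase showed no called member among 9 tested, and all 9 lay within 0.25 of 0. The receptors Tomm20, Tomm22 and Tomm70a were at log2 fold changes of 0.05, 0.03 and -0.01, and the pore Tomm40 and its relative Tomm40l at 0.10 and -0.12. The small subunits lay further from each other, with Tomm6 at 0.18 (SE 0.08, adjusted p = 0.142), Tomm5 at 0.06 and Tomm7 at -0.22 (SE 0.09, adjusted p = 0.0996). Tomm7, which is known to stabilise Pink1 at the outer membrane, was at 90.8 to 116 CPM at 22 °C and 77.8 to 95.9 CPM at 4 °C, and the groups overlapped. Tomm34, a cytosolic partner of import chaperones, was at -0.22 with a wide interval from -0.58 to 0.15. The branch summed to 885 ± 22.6 CPM at 22 °C and 888 ± 39.5 CPM at 4 °C (SD, n = 5 each).

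Samm50, which inserts barrel proteins into the outer membrane, and Immt and Chchd3, which shape the cristae junctions it is attached to, were called in neither direction. Their log2 fold changes were -0.08 (SE 0.08), 0.03 (SE 0.08) and 0.14 (SE 0.08), with adjusted p of 0.4996, 0.794 and 0.225. All 3 intervals lay within 0.5 of 0. These are among the most abundant members, and together they summed to 1823 ± 134 CPM at 22 °C and 1868 ± 61.7 CPM at 4 °C (SD, n = 5 each).

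In the TIM23 translocase Timm21 was the only called member of 6 tested. Timm23, the channel, was at 138 ± 8.74 CPM at 22 °C and 153 ± 7.60 CPM at 4 °C (log2 fold change 0.15, SE 0.07, adjusted p = 0.166). Timm17a and Timm17b, the alternative partners of the channel, were at -0.06 and -0.13, Timm50, the presequence receptor, at 0.00 and Timm44, which anchors the import motor, at -0.09. In Timm17b control replicate 2 was at 35.9 CPM and the other 4 control libraries at 26.4 to 28.6, and with control replicate 2 omitted the value was -0.04. Pmpca and Pmpcb, the subunits of the peptidase that removes presequences, were at -0.02 (adjusted p = 0.893) and -0.09 (adjusted p = 0.465).

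No fusion or fission gene was called. Mfn1 and Mfn2, the mitofusins of the outer membrane, and Opa1, which fuses the inner membrane, were at log2 fold changes of 0.03, 0.05 and 0.01. Mfn2 was at 454 to 514 CPM at 22 °C and 467 to 583 CPM at 4 °C, and Opa1 at 312 to 359.6 and 301 to 376 CPM, and the groups overlapped for both. Cold replicate 5 was the highest library for each, and with it omitted Mfn2 was at -0.01. The 95% intervals were -0.17 to 0.23 for Mfn1, -0.12 to 0.22 for Mfn2 and -0.15 to 0.18 for Opa1. Dnm1l, the GTPase that constricts mitochondria, was at -0.15 (SE 0.08, adjusted p = 0.195) and its receptor Mff at 0.07 (adjusted p = 0.595). Fis1, an outer membrane protein linked to fission, was at 53.6, 57.9, 56.7, 66.2 and 67.5 CPM in control and 78.1, 75.5, 79.1, 66.8 and 64.5 CPM in cold libraries. Cold replicates 1 to 3 lay above all control libraries and cold replicates 4 and 5 within their range. Its log2 fold change of 0.27 (SE 0.09) missed the threshold (adjusted p = 0.0620). Of the 10 fits without 1 library, Fis1 passed only without cold replicate 5 (0.30, adjusted p = 0.0401), and adjusted p ran up to 0.143.

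Among the other proteases the m-AAA subunits, which form assemblies of Afg3l2 alone or with Spg7, lay on either side of 0. Spg7 (paraplegin) was at 113, 98.7, 128, 117 and 120.3 CPM in control and 87.8, 82.5, 88.6, 88.8 and 119 CPM in cold libraries. Cold replicates 1 to 4 lay below every control library and cold replicate 5 within the control range. The log2 fold change was -0.30 (SE 0.11, adjusted p = 0.0646) with all libraries, -0.41 (adjusted p = 0.00563) when cold replicate 5 was omitted, -0.36 (adjusted p = 0.0277) when control replicate 2 was and -0.46 (adjusted p = 0.000735) when both were. Afg3l2 was at 438, 398, 382, 375 and 394 CPM in control and 425, 439, 431, 444 and 501.6 CPM in cold libraries. These groups overlapped, and the log2 fold change was 0.17 (SE 0.07, adjusted p = 0.120). In the fits without 1 library the value for Afg3l2 ran from 0.13 to 0.21, and it was called in none of them. Afg3l1, a further m-AAA subunit of the mouse, was at 0.12 (adjusted p = 0.302). With control replicate 2, cold replicate 5 or both left out, 5 members fell in place of 3, and 3, 4 and 4 rose. Over all genes tested the called share was 21.4%, 21.4% and 25.3% in these fits, against 19.3% with all libraries.

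The remaining proteases showed no called member. Lonp1, the main matrix protease, was at -0.11 (adjusted p = 0.443), or -0.19 (adjusted p = 0.153) with cold replicate 5 omitted. The values were, for Clpp, the peptidase of the Clp protease, 0.02 (adjusted p = 0.891) and, for Htra2, a serine protease of the intermembrane space, -0.05 (adjusted p = 0.765). Clpx, the unfoldase of Clpp, was at 0.00 with a broad interval from -0.34 to 0.33. Control replicate 2 was at 383 CPM and the other control libraries at 196 to 262. Without control replicate 2 its value was 0.18 (adjusted p = 0.205). Oma1, the stress-activated protease that shares Opa1 as a substrate with Yme1l1, was at -0.17 (SE 0.12, adjusted p = 0.336).

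Levels between genes were compared per kb of counted bases in control libraries, with no test. The cristae genes Immt and Chchd3 led, at 334 ± 28.4 and 329 ± 22.2 CPM per kb (SD, n = 5), and their ranges overlapped each other but not that of Samm50 (257 ± 23.6). Phb2 followed at 236 ± 17.8, Timm8b at 199 ± 9.42 and Tomm5 at 178 ± 14.3 CPM per kb. The median tested member was at 79.4 CPM per kb and the median over all tested genes at 8.64. Pink1, at 150 ± 16.4 CPM per kb, ranked 10 of 46, while Park2 was last at 2.63 ± 0.571, after Tomm34 at 8.45 ± 2.25 and Oma1 at 9.40 ± 1.14. Most neighbours in the order did not differ beyond their ranges. The range of a member cleared that of the next one below it after Chchd3, Phb2, Yme1l1, Timm17b and Tomm34. The alternative channel partners Timm17a and Timm17b stood far apart, at 174 ± 14.7 and 17.7 ± 2.41 CPM per kb. So did Tomm40 and Tomm20 of the outer membrane translocase, at 66.4 ± 6.69 and 18.8 ± 1.91 CPM per kb. Timm8b and Timm8a1, which rose by the same fold, were at 199 ± 9.42 and 20.7 ± 2.72 CPM per kb at 22 °C and at 282 ± 27.8 and 29.4 ± 1.30 at 4 °C.

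**Figure D3:**
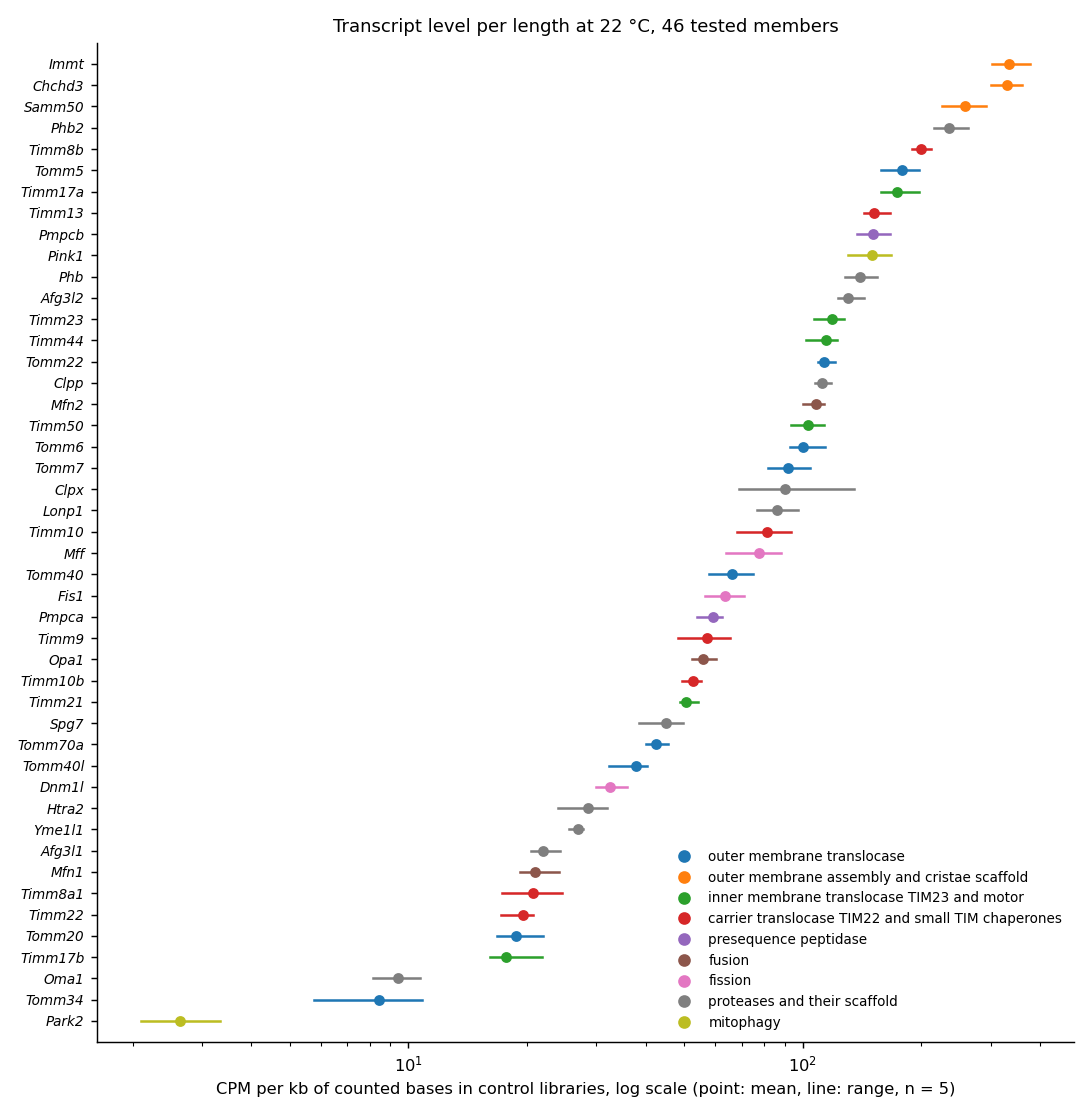
CPM per kb of counted bases in the 5 control libraries for the 46 tested members (points are means, lines are ranges, log horizontal axis), coloured by role. Levels run from 334 for Immt to 2.63 for Park2, and the 3 cristae and outer membrane assembly genes lead the order.

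Ratios of partner genes within a library do not depend on library scaling, and 19 pairs were compared between groups with a two-sided exact permutation test over the 10 libraries. After adjustment over the 19 pairs 0 passed, and the smallest p the test allows is 0.00794. Pairs at that smallest p had an adjusted p of 0.0754, so complete separation of the groups was not enough to pass. The count of 0 therefore does not tell whether a ratio differed. The log2 ratio of Phb to Phb2 was -0.41, -0.32, -0.44, -0.42 and -0.16 in control and 0.19, 0.25, 0.08, 0.04 and -0.05 in cold libraries, so the groups did not overlap. The means were -0.35 ± 0.12 and 0.10 ± 0.12 (SD, n = 5 each), a difference of 0.45 with an exact permutation p of 0.00794 and an adjusted p of 0.0754. The log2 ratio of Spg7 to Afg3l2 was -1.95, -2.01, -1.58, -1.68 and -1.71 in control and -2.27, -2.41, -2.28, -2.32 and -2.07 in cold libraries. Again the groups did not overlap, with cold replicate 5 nearest to the control libraries. The means were -1.79 ± 0.18 and -2.27 ± 0.12, a difference of -0.48 with the same exact permutation p and adjusted p. Both pairs hold a member that differed between the groups or neared the threshold, so these ratios repeat part of that difference.

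Most other pairs kept their ratio within the spread between libraries. The difference in log2 ratio was 0.01 for Timm8a1 to Timm8b, -0.02 for Mfn1 to Mfn2, -0.03 for Opa1 to Mfn2 and -0.05 for Afg3l1 to Afg3l2. Dnm1l to Mfn2, a ratio of a fission to a fusion gene, differed by -0.19 (exact permutation p = 0.0397, adjusted p = 0.188), and Tomm40 to Tomm40l by 0.22 (exact permutation p = 0.0397, adjusted p = 0.188). In 3 pairs chosen after the values were seen, and so given without a test, Timm8b to Timm13 went from -1.005 ± 0.11 to -0.37 ± 0.09, Timm8a1 to Timm13 from -2.85 ± 0.11 to -2.21 ± 0.11 and Timm21 to Timm23 from -1.05 ± 0.15 to -1.48 ± 0.15 (SD, n = 5 each).

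**Figure D4:**
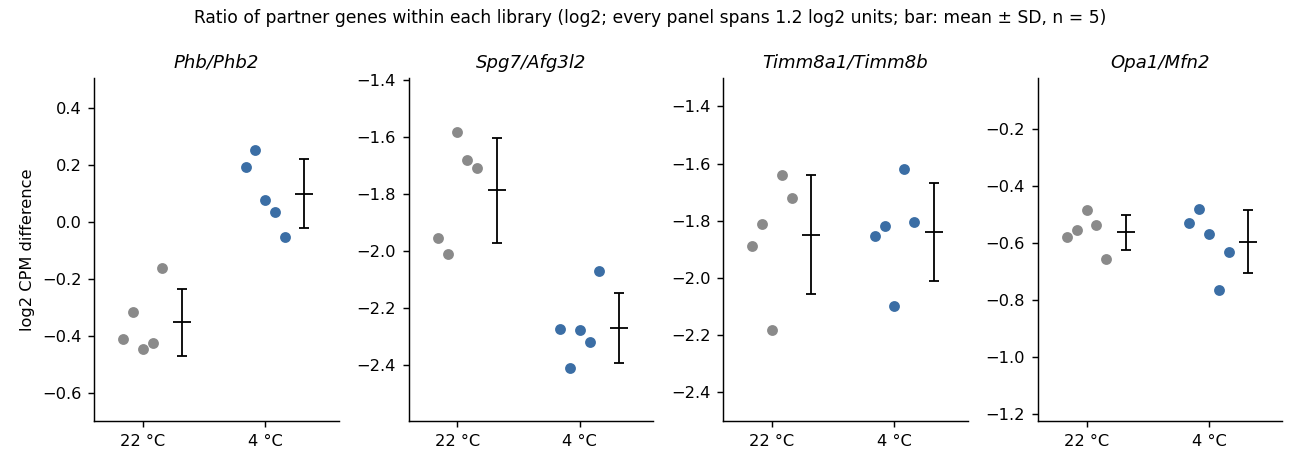
Log2 ratio of CPM of 4 pairs of partner genes in each library (grey 22 °C, blue 4 °C, replicates 1 to 5 from left to right, bars are mean and SD, n = 5), every vertical axis spanning the same number of log2 units. Phb to Phb2 and Spg7 to Afg3l2 separate the groups, while Timm8a1 to Timm8b and Opa1 to Mfn2 overlap.

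Other genes of import and quality control, from a list of 67 of which 66 were matched and 64 tested, had 7 members higher and 5 lower, with a median log2 fold change of 0.04. That is 18.8% called, near the 19.3% of all genes tested. Without control replicate 4 or without cold replicate 2, 4 rose, and 15.3% and 14.4% of all genes tested were called. The 5 with the smallest p that rose were Dnajc11, a partner of the cristae organising complex (0.54, SE 0.10, adjusted p = 0.00352), Chchd4, which oxidises small TIM proteins on entry (0.31, SE 0.07, adjusted p = 0.00794), Pld6, a lipase of the outer membrane (0.99, SE 0.23, adjusted p = 0.00932), Rhot2, which links mitochondria to transport (0.32, SE 0.08, adjusted p = 0.0161), and Slc25a46, an outer membrane protein of mitochondrial dynamics (0.26, SE 0.07, adjusted p = 0.0203). Slc25a46 lost its call without control replicate 4 or 5 or cold replicate 2 or 4 (adjusted p 0.0506 to 0.0547). Chchd4 was at 60.2 to 68.1 CPM at 22 °C and 75.5 to 81.8 CPM at 4 °C, with no overlap. Pld6 was low throughout, at 3.62 to 7.58 and 8.23 to 13.5 CPM.

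The 5 genes of that list that fell included Immp2l, a peptidase of the inner membrane that removes sorting signals. Immp2l was at 85.3, 82.6, 75.8, 94.7 and 90.8 CPM in control and 35.2, 34.8, 34.6, 30.1 and 39.7 CPM in cold libraries, a fall of 1.30 on the log2 scale (SE 0.09, adjusted p = 3.51e-06). No member of the core set differed as much. Its span holds Lrrn3 on the other strand, which was at 0.417 and 0.166 CPM. Trap1, the mitochondrial chaperone of the Hsp90 family, fell by 0.61 (SE 0.09, adjusted p = 0.000394), Clpb, a disaggregase of the intermembrane space, by 0.53 (SE 0.09, adjusted p = 0.00193) and Mipep, a matrix peptidase that trims imported proteins, by 0.38 (SE 0.09, adjusted p = 0.0107). Dnajc19, a cochaperone of the import motor, fell by 0.41 (SE 0.12, adjusted p = 0.0257), a call lost for Dnajc19 with unscaled library totals (adjusted p = 0.0501) and without control replicate 4 or 5 or cold replicate 3 or 4 (0.0566 to 0.0681). Its span overlaps that of Fxr1 on the other strand by 12065 bases, and Fxr1 rose by 0.54 (adjusted p = 0.00322).

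Set beside other nuclear genes for mitochondrial proteins, 72 tested genes of oxidative phosphorylation had 0 higher and 20 lower members (27.8%, against 10.2% of all genes tested higher and 9.14% lower) and a median of -0.12, and the import, dynamics and protease genes a median of 0.02. The difference between the lists was not tested. Of 16 tested genes of the mitochondrial unfolded protein and ATF4 responses, which include the members Clpp, Clpx and Lonp1, 2 rose, Fgf21 and Hspd1, and 0 fell. At an unadjusted p under 0.05 in the same edgeR test 5 of the 16 passed (31.2%, against 34.1% of all genes tested). Hspa9, the matrix chaperone that pulls precursors through TIM23, was at 0.12 (adjusted p = 0.423), and Hspd1, which folds them, at 0.24 (adjusted p = 0.0265).

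**Figure D5:**
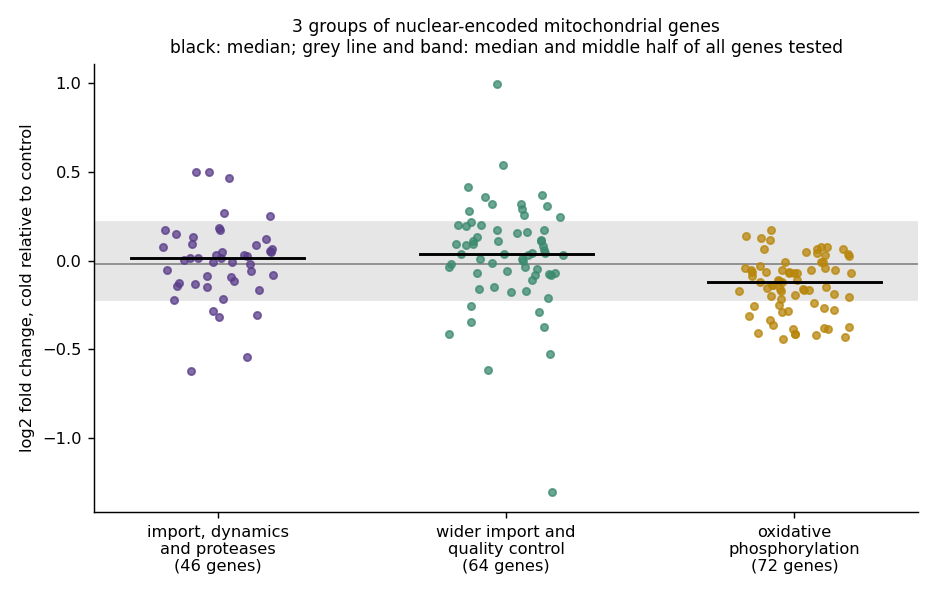
Log2 fold change, cold relative to control, of each tested gene in 3 groups of nuclear-encoded mitochondrial genes (46, 64 and 72 genes), with the median of each group in black and, in grey, the median and quartiles of all genes tested. The medians are 0.02, 0.04 and -0.12, and most points of the first group lie within the quartiles of all genes.

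In the authors' deposited table, which lists the same 46 members, 3 were higher and 3 lower at an adjusted p under 0.05. Phb, Timm8a1, Timm8b, Pink1 and Yme1l1 were called there as here. In the authors' deposited table Park2 had an adjusted p of 0.0415 and Timm21 one of 0.0698, which is the reverse of the calls above for this pair.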

How the data were processed

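RNA-seq of brown adipose tissue from 5 control and 5 cold mice was analysed from the deposited table of raw counts per RefSeq gene model, per the file headers. The submitters' processing notes name STAR, edgeR and the mm9 build. Their versions, the counter and the strand setting are not stated in the sources used here. In the authors' deposited table of their own comparison are log2 fold changes, log2 CPM, p-values and adjusted p-values, per the file headers. The treatment tag of the cold samples says room temperature with 4 °C beside it; titles and source names place them in the cold group. Control columns were matched to samples by replicate number, and 0 library columns were left unused. Symbols that were turned into dates or repeated kept their RefSeq identifier (27 gene models).

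The counts were tested with edgeR 4.0.16 (R 4.3.3): TMM scaling, filterByExpr (11229 genes, which hold 99.7 to 99.9% of each library's counts), glmQLFit and glmQLFTest, cold against control with no covariate, two-sided, with Benjamini-Hochberg adjustment across the tested genes and a threshold of 0.05. CPM values use TMM-scaled library sizes, and ratios use log2 CPM with a prior count of 2. Levels per kb divide by the counted bases that the deposited table gives. Where the labels name separate mice, p-values measure the spread between those mice. Of the members, 8 overlap another gene model, all on the opposite strand only.

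Every tested member is named; members called, and the partners discussed with them, are given by library, as are members singled out after their values were seen (Park2, Fis1, Spg7, Afg3l2, Phb2). Of the wider list the 5 called genes with the smallest p in each direction are named, and Hspd1, Hspa9 and Fgf21 beside them after their values were seen. The members and lists were chosen with earlier results of these data known. Alternatives were other scalings, filters, DESeq2 1.42.0, limma-voom (limma 3.58.1), a replicate block and fits without single libraries. Upstream windows come from RefSeq, GRCm38.p6, another build than the gene coordinates (mm9).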

Additional observations from a re-analysis of the deposited data

Results flagged for a closer look

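In each group of 5 libraries, the gap of the highest or lowest library to its nearest neighbour was set against the whole range of the group. Chance alone passes this test in about 1 of 20 groups, and 9 of the 92 groups examined (46 members in both conditions) passed it. In 6 of the 9 the library was cold replicate 5. There Afg3l2 was at 501.6 CPM (424.9 to 444.4 in the other cold libraries), Lonp1 at 281.1 (216 to 232), Pink1 at 345.3 (193 to 233), Pmpca at 148.5 (124 to 131) and Spg7 at 119.1 (82.5 to 88.8), each the highest, and Timm44 at 173.2 (195 to 202), the lowest. For Pink1 and Spg7 that library lay within the control range. In control replicate 2, Timm17b was highest at 35.89 CPM (26.4 to 28.6 in the other control libraries) and Tomm40l lowest at 85.71 (102 to 107). Oma1 was lowest in cold replicate 3, at 13.68 CPM (15.8 to 16.6).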

How the results depend on the processing

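Over the 20 alternatives Phb, Timm8a1, Timm8b, Pink1 and Yme1l1 were called each time, and Timm21 in 18. The count of higher members was 5 with unscaled library totals (Timm22 and Afg3l2 added) and 5 with DESeq2 (Timm22 and Fis1 added). Of all genes tested 19.1% and 21.9% were called there, against 19.3% in the main fit. The count of lower members was 5 without the 20 most abundant genes in the library sizes, and 5 when control replicate 2 and cold replicate 5 were both omitted (Spg7 and Park2 added in both). The share of all genes called was 19.6% and 25.3% in these fits. Leaving out 1 library gave 3 to 4 higher and 2 to 5 lower members, and 4 to 10 higher and 4 to 6 lower genes of the wider list. In those fits 13.8 to 21.4% of all genes tested were called. Same-numbered libraries did not deviate together (correlations from -0.25 to 0.19, best with the own number in 2 of 5). These values show no pairing of the mice by number but cannot exclude one. With the replicate block 3 members were higher and 2 lower (Timm21 lost, adjusted p = 0.0668). In the wider list 5 genes were higher and 4 lower, and 15.9% of all genes tested were called. No pair of partner genes could pass there, because 0.0625 is the smallest p the paired permutation test allows. Dnajc19 was not called with unscaled totals (adjusted p = 0.0501), the block or without any of 4 single libraries, and Slc25a46 not with the block or without any of 4. The median level per kb was 78.5 with unscaled totals and 78.6 to 79.6 without 1 control library. The cause was not tested for any of these changes. Depth limits Park2, at 22 to 49 reads a library.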
